A study of Mus musculus with 12 samples.

Results

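DNA replication and mitosis genes are a set of 43 genes, 22 for copying the genome and 21 for mitosis. A member was measured by the probe set whose platform symbol was that gene and no other, and by the brightest of these where there were several (31 members), by mean log2 signal over the 12 arrays. This gave 42 measured genes of 12737 in all, 22 replication and 20 mitotic, and all 42 passed the filter on low signal. Ccnb1, cyclin B1, had no probe set under that symbol alone and has no value. The genes were followed in mouse D3 embryonic stem cells, an established line, kept for 7 days in medium with serum. All groups share the line, the serum and the time. LIF cultures had LIF (leukaemia inhibitory factor, the cytokine that keeps mouse embryonic stem cells undifferentiated) at 1000 units per ml. LIF-plus-lithium cultures had the same LIF and lithium, an inhibitor of the kinase GSK3, at a concentration that the labels give as 50 nM. LIF-free cultures had neither, and lithium-treated LIF-free cultures had lithium alone. Each group holds 3 arrays whose titles call them biological replicates, and nothing in the labels says whether equal numbers mark a shared day.

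Before a cell copies its DNA, the origin recognition complex, Cdc6 and Cdt1 load the MCM helicase onto origins, a step called licensing that geminin (Gmnn) blocks by binding Cdt1. GINS, Mcm10 and DNA polymerase alpha then start forks, the clamp Pcna and its loader keep polymerases on the template, and ribonucleotide reductase and thymidylate synthase make the nucleotides. Mitosis is driven by cyclins with Cdk1, held back by the spindle checkpoint, and carried out by kinases, motors and kinetochore proteins. Mouse embryonic stem cells are known for fast cycles with a short gap before DNA synthesis. Transcription of replication genes is classically tied to E2F factors, and that of mitotic genes to the CHR element and CCAAT boxes read by DREAM, MuvB and NF-Y complexes.

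The promoters of 6 members are shown, because they hold the words counted next and belong to members with called changes (Mcm3, Orc1, Pola1, Bub1b and Ttk) or to the proliferation marker Mki67. Sequences are from RefSeq (GRCm38.p6), 300 bases from 250 before to 50 after a gene's start, 5′ to 3′ on the gene's strand. Of the 43 members, 35 matched that table (18 replication and 17 mitotic, Ccnb1 included). Windows are Mcm3 at chr1:20820263-20820562 (minus strand), Orc1 at chr4:108579204-108579503 (plus strand), Pola1 at chrX:93632106-93632405 (minus strand), Bub1b at chr2:118597961-118598260 (plus strand), Ttk at chr9:83834439-83834738 (plus strand) and Mki67 at chr7:135716330-135716629 (minus strand). Capitals mark matches on either strand to TTTCCCGC, TTTCGCGC, TTTGCCGC or TTTGGCGC (E2F-like), to TTTGAA or TTCGAA (CHR-like), and to CCAAT. No word searched contains another.
Mcm3: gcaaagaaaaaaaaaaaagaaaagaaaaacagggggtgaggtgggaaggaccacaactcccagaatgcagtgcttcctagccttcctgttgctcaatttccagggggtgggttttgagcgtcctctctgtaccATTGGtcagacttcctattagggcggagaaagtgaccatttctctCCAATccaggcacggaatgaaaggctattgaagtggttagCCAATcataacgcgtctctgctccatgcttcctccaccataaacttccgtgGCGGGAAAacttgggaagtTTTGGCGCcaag
Orc1: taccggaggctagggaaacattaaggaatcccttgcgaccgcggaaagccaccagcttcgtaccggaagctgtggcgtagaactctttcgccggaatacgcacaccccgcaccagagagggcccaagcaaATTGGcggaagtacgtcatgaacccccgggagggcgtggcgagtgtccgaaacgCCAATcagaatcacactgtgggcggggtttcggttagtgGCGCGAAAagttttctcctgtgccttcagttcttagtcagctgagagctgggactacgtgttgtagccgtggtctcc
Pola1: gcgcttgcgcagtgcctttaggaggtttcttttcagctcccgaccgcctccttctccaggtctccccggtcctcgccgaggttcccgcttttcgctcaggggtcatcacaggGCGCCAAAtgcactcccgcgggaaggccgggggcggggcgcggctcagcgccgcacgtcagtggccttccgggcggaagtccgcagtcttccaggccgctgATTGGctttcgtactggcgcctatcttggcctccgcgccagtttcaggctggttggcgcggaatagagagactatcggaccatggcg
Bub1b: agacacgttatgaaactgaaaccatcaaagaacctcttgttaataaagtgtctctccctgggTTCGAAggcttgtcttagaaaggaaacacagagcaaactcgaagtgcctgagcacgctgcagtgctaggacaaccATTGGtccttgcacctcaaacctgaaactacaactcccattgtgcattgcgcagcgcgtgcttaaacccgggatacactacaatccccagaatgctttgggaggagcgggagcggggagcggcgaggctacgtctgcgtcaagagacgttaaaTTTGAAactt
Ttk: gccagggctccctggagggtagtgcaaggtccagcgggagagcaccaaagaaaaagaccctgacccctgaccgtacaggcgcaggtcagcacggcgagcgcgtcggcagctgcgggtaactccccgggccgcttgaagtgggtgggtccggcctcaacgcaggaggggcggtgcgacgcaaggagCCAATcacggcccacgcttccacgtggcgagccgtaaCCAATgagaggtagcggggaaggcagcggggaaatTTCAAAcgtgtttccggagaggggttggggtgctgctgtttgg
Mki67: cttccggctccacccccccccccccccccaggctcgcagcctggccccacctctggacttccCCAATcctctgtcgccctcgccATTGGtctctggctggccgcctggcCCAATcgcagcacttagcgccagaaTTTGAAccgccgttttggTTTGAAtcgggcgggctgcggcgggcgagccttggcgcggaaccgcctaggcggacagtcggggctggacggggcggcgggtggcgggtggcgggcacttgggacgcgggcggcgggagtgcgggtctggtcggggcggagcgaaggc

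An E2F-like word stood in 9 of the 18 replication promoters (50%) and in 1 of the 17 mitotic ones (5.88%, Cdk1), beside 2.26% of all 32851 windows of this length. Mcm3, Mcm5, Mcm6, Mcm7, Cdc6, Cdt1, Orc1, Pola1 and Rfc3 were the replication genes with a match. A CHR-like word stood in 3 replication (16.7%) and 12 mitotic promoters (70.6%), beside 19.2% of all windows. CCAAT stood in 14 (77.8%) and 15 (88.2%), beside 37.4%, and a CHR-like word together with CCAAT in 16.7% of replication, 70.6% of mitotic and 7.52% of all windows. These are letter matches, described and not tested, and say nothing of binding in these cells.

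The deposited values are MAS5 signals, in which every array was scaled to the same trimmed mean, and changes below are differences of log2 signal with the standard error (SE) of the limma fit. The members were well measured: their probe sets had a median percentile of 92.3 in mean signal among all genes, and the 95% interval of a log2 change reached a median of 0.31 to either side of the estimate, against 0.63 over all probe sets. Thymidylate synthase (Tyms) was the exception, at percentile 23.7 and signals of 14.0 to 63.5. As checks on the labels, Pou5f1, the core pluripotency factor Oct4, was at 2281 ± 989 (SD, n = 3) with LIF and 795 ± 129 without (limma adjusted p = 0.0101), and at 2082 ± 328 and 748 ± 253 with lithium (adjusted p = 0.0059). The first of these calls ended under median centring (adjusted p = 0.0792). Of 12 embryonic stem cell markers, 9 fell on LIF withdrawal in each lithium background, and 1 (Lin28a) rose with lithium. Their summed signal was 21038 to 32322 in LIF, 24431 to 25557 in LIF-plus-lithium, 13065 to 16306 in LIF-free and 10810 to 15909 in lithium-treated LIF-free cultures. The arrays' median signals ran from 10.5 to 19.3, so the choice of scaling moves all genes together and is given with each list.

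**Figure D1:**
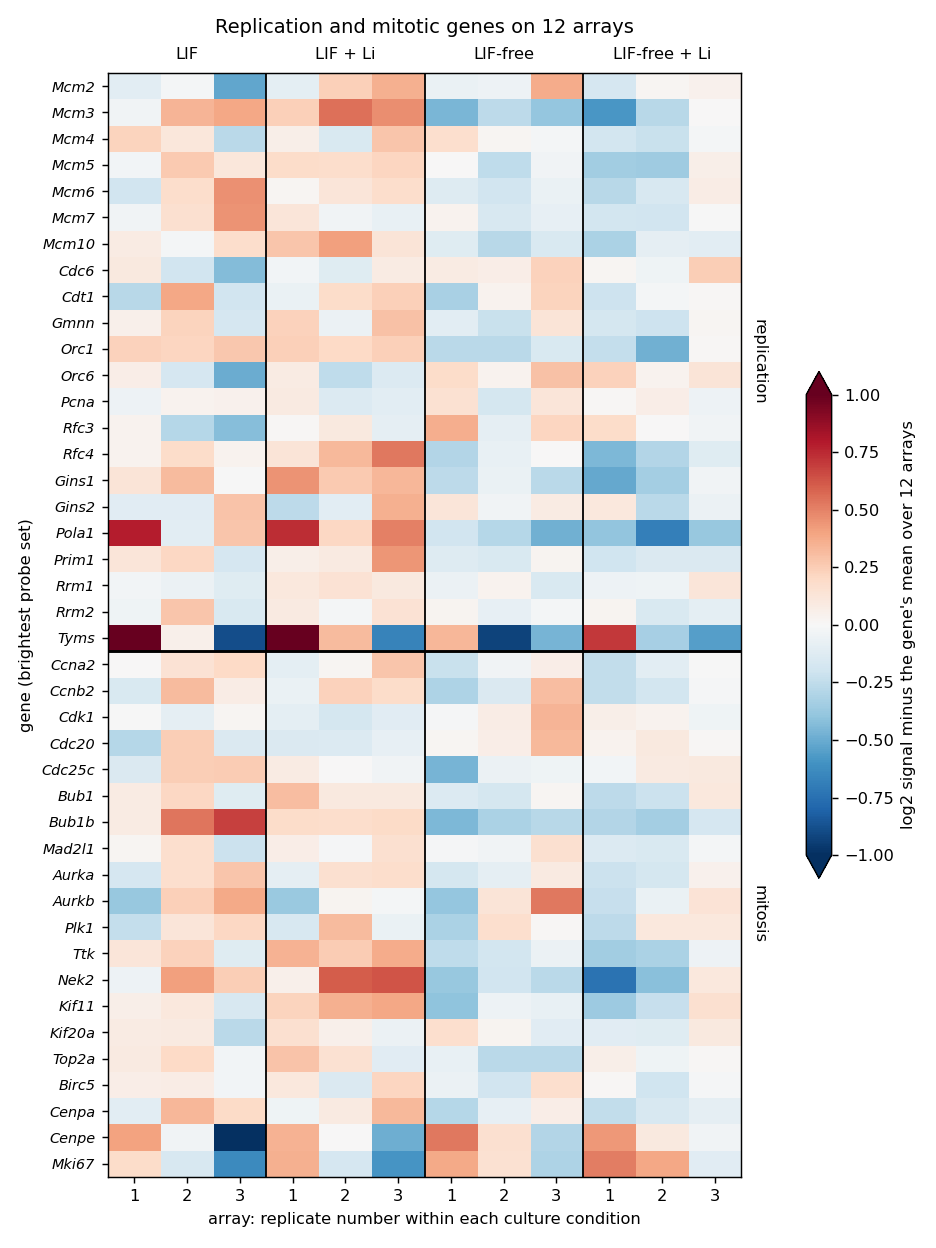
Heat map of 42 members (rows, replication genes above the thick line, mitotic genes below) on 12 arrays (columns, replicates 1 to 3 of each group). Colour is the log2 signal minus the gene's mean over the 12 arrays, with values beyond 1 shown as 1. Orc1, Pola1 and Bub1b are blue or white on the 6 LIF-free arrays and mostly red on the LIF arrays, while Tyms, Cenpe and Mki67 differ by replicate number inside every group.

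LIF withdrawal without lithium compared LIF-free with LIF cultures, and asked what these genes did once the cytokine was taken away. Among replication genes 0 rose and 2 of 22 fell (9.09%, against 5.09% of all genes that fell and 7.47% that rose), and the other 20 did not pass the test at a Benjamini-Hochberg adjusted p of 0.05. Their median change was -0.12, with 13 of 22 below 0, beside a median of -0.02 over all genes and 0.03 over the brightest genes, those above the 75th percentile of mean signal. That sign holds as deposited and under quantile and upper quartile scaling, and flips to 0.07 when each array is centred on its median, which moves all genes to 0.18. Set against the all-gene median it was -0.10, a difference that a shift of whole arrays cannot change. Values of 6 replication genes lay wholly lower in the LIF-free arrays (27.3%, against 15% of all genes) and of 0 wholly higher (against 17.2%).

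The 2 that fell belong to licensing and the helicase. Mcm3, a helicase subunit, gave signals of 1289, 1669 and 1725 with LIF and 963, 1104 and 1011 without. The groups did not overlap, and the LIF-free level was 0.662 of the LIF level (log2 change -0.60, SE 0.16, adjusted p = 0.0373). Orc1, the largest subunit of the origin recognition complex, gave 393, 389 and 406 with LIF and 279, 279 and 302 without. Every LIF-free array was under every LIF array, at 0.724 of the LIF level (-0.47, SE 0.13, adjusted p = 0.0456). Both calls are close to the threshold. Leaving out 1 array ended Mcm3's for LIF replicates 2 and 3, LIF-plus-lithium replicate 2, all 3 LIF-free replicates and lithium-treated LIF-free replicate 2 (adjusted p 0.0509 to 0.128). Orc1's ended without any array other than lithium-treated LIF-free replicates 2 and 3 (adjusted p 0.0572 to 0.138), and median centring, upper quartile scaling and no filter ended both. With probe sets averaged, Mcm3 changed by -0.36 (adjusted p = 0.127) and Orc1 by -0.23 (adjusted p = 0.595). In the limma fit with the replicate number as a block, the adjusted p was 0.00322 for Mcm3 and 0.0155 for Orc1.

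The rest of the MCM ring did not pass. Mcm2 was at 1075 ± 194 (SD, n = 3) without LIF and 873 ± 155 with it (0.30, SE 0.17, adjusted p = 0.309), and Mcm5 at 2613 ± 243 and 3024 ± 304 (-0.21, SE 0.13, adjusted p = 0.369). Mcm4, Mcm6, Mcm7 and Mcm10, the last needed for helicase activation, had changes of 0.03, -0.28, -0.26 and -0.26. Cdc6, the helicase loader, stood at 716 ± 46.5 without LIF and 587 ± 110 with LIF (0.30, SE 0.15, adjusted p = 0.221). Its partner Cdt1, their inhibitor Gmnn and Orc6 changed by 0.00, -0.10 and 0.37. Subunits of a single complex thus had estimates on either side of 0 by their brightest sets. For Mcm2, Mcm4 and Cdt1, among others, the sign depended on the probe set. Another set of Mcm2, at a mean signal of 895, gave -0.33 (adjusted p = 0.255), and another of Mcm4 gave -0.01 (adjusted p = 0.964). Another of Cdt1, at a mean signal of 645, gave -0.55 (adjusted p = 0.26).

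At the fork, Pola1, the catalytic subunit of DNA polymerase alpha, had the lowest estimate of the 22. Its signals were 653, 353 and 461 with LIF and 332, 312 and 272 without, with no overlap but a wide LIF group (-0.64, SE 0.21, adjusted p = 0.0735). With the replicate number as a block the adjusted p was 0.0089, which raised the count that fell from 2 to 3. Over all 12737 genes the block raised that count from 648 to 1367. Pcna, the sliding clamp, gave 4719, 5015 and 5035 with LIF and 5446, 4321 and 5327 without. The groups overlapped and the interval of the change ran from -0.23 to 0.28 (0.02, SE 0.12, adjusted p = 0.928). The clamp loader subunits Rfc3 and Rfc4 changed by 0.39 and -0.21, the GINS subunits Gins1 and Gins2 by -0.35 and 0.03, and the primase Prim1 by -0.13, and none of these passed.

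In nucleotide supply, Rrm1 and Rrm2, the subunits of ribonucleotide reductase, changed by 0.01 and -0.05, and Rrm2 was at 3065 ± 112 without LIF and 3203 ± 508 with LIF (SE 0.12, adjusted p = 0.842). Other sets of Rrm2, at mean signals of 1600 and 887, gave lower estimates, -0.34 (adjusted p = 0.104) and -0.56 (adjusted p = 0.0609). Another set of Rrm1, at a mean signal of 924, gave 0.25 (adjusted p = 0.2). Tyms was too dim to be placed, at 22.3 ± 10.1 and 35.2 ± 25.4 (-0.49, SE 0.59, adjusted p = 0.667).

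Among mitotic genes 0 rose and 1 of 20 fell (5%, against 5.09% of all genes), with 19 not passing. The median change was -0.14 with 13 of 20 below 0, -0.12 against the all-gene median, and it too flips in sign under median centring (0.06). Values of 3 genes lay wholly lower (15%, the same share as over all genes) and of 0 wholly higher. The gene that fell was Bub1b, which encodes the checkpoint kinase BubR1. Its signals were 623, 854 and 948 with LIF and 431, 475 and 487 without, so the LIF-free arrays were all below the LIF arrays, at 0.582 of their level (-0.78, SE 0.15, adjusted p = 0.00649). The call held whichever array was left out (highest adjusted p 0.0346) and ended under median centring and with its probe sets averaged (-0.44, adjusted p = 0.291). Another bright probe set of the gene also fell (-0.68, adjusted p = 0.0157). The average includes a dim set, at a mean signal of 8.51, which gave 0.13 (adjusted p = 0.928). For the brightest set of Bub1b, the limma fit with the replicate block gave an adjusted p of 8.73e-04.

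The other checkpoint genes and kinases did not pass. Bub1 changed by -0.15, Mad2l1 by 0.05, Ttk by -0.24, and Aurka, the spindle pole kinase, stood at 656 ± 62.6 without LIF and 731 ± 112 with it (-0.15, SE 0.14, adjusted p = 0.586). Nek2, a centrosome kinase, was at 366, 503 and 450 with LIF and 290, 332 and 314 without. Its groups did not overlap (-0.48, SE 0.22, adjusted p = 0.188), and with the replicate block its adjusted p was 0.034, which raised the mitotic count that fell from 1 to 2. The count over all 12737 genes rose with the block from 648 to 1367. Aurkb and Plk1, whose products act at the centromere and through the whole of mitosis, changed by 0.01 and -0.07.

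No cyclin, Cdk1 or regulator of Cdk1 passed. Cdk1, the mitotic kinase, gave 929, 874 and 945 with LIF and 922, 979 and 1179 without, with overlap (0.16, SE 0.12, adjusted p = 0.445). Ccna2, Ccnb2, Cdc20, the activator of the anaphase-promoting complex, and Cdc25c, a phosphatase that activates Cdk1, changed by -0.18, -0.13, 0.20 and -0.31. Other sets of Cdc20, at mean signals of 1374 and 235, gave -0.18 (adjusted p = 0.611) and -0.15 (adjusted p = 0.812). Of the genes of chromosomes and kinetochores, Top2a, the topoisomerase that untangles sister DNA, gave 2857, 3091 and 2640 with LIF and 2556, 2230 and 2234 without. Every LIF-free array was lower, yet the fit did not call it (-0.29, SE 0.12, adjusted p = 0.163).

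The survivin gene Birc5 stood at 1343 ± 174 without LIF and 1396 ± 53.5 with it (-0.06, SE 0.13, adjusted p = 0.816). Mki67, the Ki-67 antigen used to mark cycling cells, gave 969, 764 and 550 with LIF and 1112, 949 and 689 without. Each LIF-free value was above the LIF value of the same number, but the groups overlapped (0.28, SE 0.27, adjusted p = 0.585). The kinetochore motor gene Cenpe (0.38) had a similar spread, and Kif11, Kif20a and Cenpa, 2 motors and the centromeric histone, changed by -0.18, 0.06 and -0.24.

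**Figure D2:**
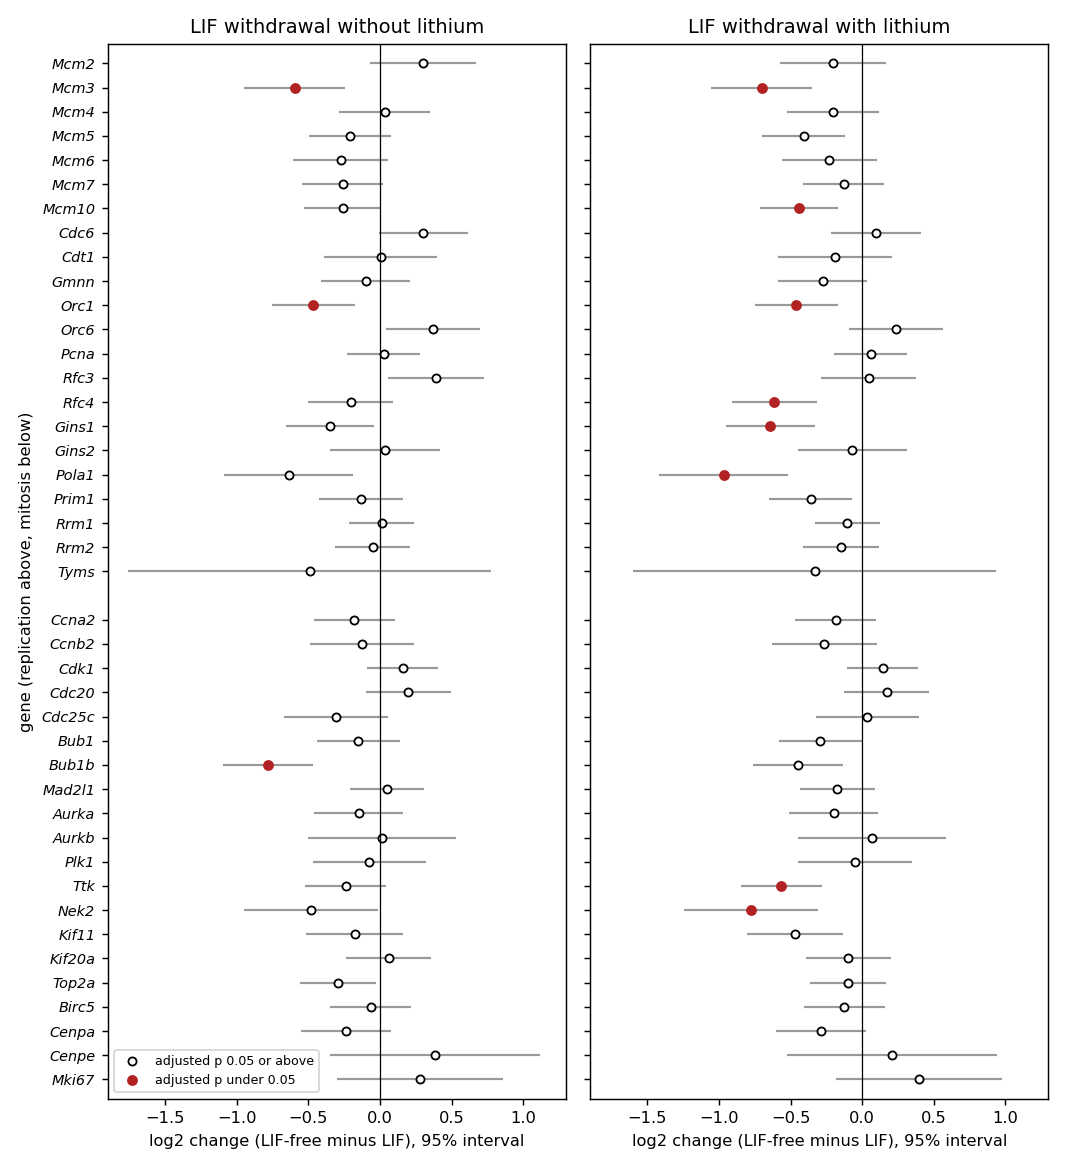
Log2 change of each member on LIF withdrawal without lithium (left) and with lithium (right), deposited scaling. Points are limma estimates from 3 against 3 arrays, lines their 95% intervals, and red points have an adjusted p under 0.05. Called changes are all below 0, 3 on the left and 8 on the right, and the interval of Tyms is the widest. Centring arrays on their median leaves 0 called on the left and 1 (Pola1) on the right.

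LIF withdrawal in the presence of lithium compared lithium-treated LIF-free with LIF-plus-lithium cultures. Its estimates use other arrays than those above, while the spread behind the tests is shared by all 12. Here 0 replication genes rose and 6 of 22 fell (27.3%, against 6.57% of all genes that fell and 9.48% that rose), and 16 did not pass. The median change was -0.22, with 18 of 22 below 0, beside 0.07 over all genes and -0.06 over the brightest genes. It was below 0 under all 4 scalings, at -0.16 with quantile and -0.32 with upper quartile scaling and -0.56 with median centring, where all genes moved to -0.28. Values of 8 genes lay wholly lower (36.4%, against 17% of all genes) and of 0 wholly higher (against 22.8%). Of the 3185 brightest genes, 317 fell, 821 lay wholly lower and 622 wholly higher.

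Pola1 showed the largest change of the 42. It gave 634, 437 and 539 with LIF and lithium and 289, 236 and 292 with lithium alone. The LIF-free level was 0.511 of the LIF level (-0.97, SE 0.21, adjusted p = 0.0104), and it was the only member called under median centring too (highest adjusted p over the alternatives 0.0314). Without lithium-treated LIF-free replicate 2 its adjusted p was 0.0537. The clamp loader gene Rfc4 gave 1175, 1342 and 1547 with LIF and 786, 875 and 989 without (0.653 of the LIF level, -0.61, SE 0.14, adjusted p = 0.0123). Gins1, a subunit of the active helicase, gave 731, 641 and 675 with LIF and 377, 423 and 524 without (0.641, -0.64, SE 0.14, adjusted p = 0.0126).

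Both sets of arrays stood apart without overlap. Rfc4's call ended without LIF-plus-lithium replicate 3 (adjusted p = 0.0661) or lithium-treated LIF-free replicate 1 (0.0637), and that of Gins1 without lithium-treated LIF-free replicate 1 (0.0657) or 2 (0.054). Averaged over its probe sets, Gins1 changed by -0.04 (adjusted p = 0.949). Its other tested set was dim, at a mean signal of 14.0, and gave 0.56 (adjusted p = 0.592). Mcm3 was again lower, at 1560, 1935 and 1822 with LIF and 880, 1091 and 1327 without. Its groups did not overlap (0.614, -0.70, SE 0.16, adjusted p = 0.0145). Others of its probe sets gave -0.82 (adjusted p = 0.0211) and -0.71 (adjusted p = 0.02). Over the members, 4 of 39 other tested sets fell with lithium and 1 without, and all sets had 1 sign in 17 and 18 of the 28 members with several. The Mcm3 call ended without LIF-plus-lithium replicate 2 or 3 or lithium-treated LIF-free replicate 1 or 2 (adjusted p 0.0529 to 0.0723).

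Mcm10 and Orc1 were called closer to the threshold. Mcm10 gave 509, 557 and 457 with LIF and 337, 395 and 390 without, not overlapping (-0.44, SE 0.13, adjusted p = 0.0379). A dim probe set of this gene, at a mean signal of 28.9, went the other way (1.52, adjusted p = 0.04), so the mean over its sets was 0.23 (adjusted p = 0.467). Orc1 gave 397, 386 and 396 with LIF and 285, 241 and 339 without (-0.46, SE 0.13, adjusted p = 0.0404), close to the change without lithium, and averaging its probe sets gave -0.21 (adjusted p = 0.619). Mcm10's call ended on leaving out any array of the 3 groups other than LIF (adjusted p 0.0517 to 0.157). Orc1's ended without LIF replicate 2, any LIF-plus-lithium or LIF-free array, or lithium-treated LIF-free replicate 1 or 2 (adjusted p 0.0526 to 0.172).

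Several replication genes were lower without passing. Mcm5 was at 2415 ± 409 without LIF and 3177 ± 43.8 with it (-0.41, SE 0.13, adjusted p = 0.0635), and was called under quantile scaling (0.0323) or without lithium-treated LIF-free replicate 3 (0.0202). Prim1 changed by -0.36 (adjusted p = 0.102), and Mcm2 was at 981 ± 76.8 and 1135 ± 177 (-0.20, SE 0.17, adjusted p = 0.5). The brightest set of Mcm7 did not pass (-0.13), while another of its sets fell (-0.44, adjusted p = 0.0185). Others that did not pass were Cdc6, at 693 ± 76.2 and 646 ± 45.1 (0.10, SE 0.15, adjusted p = 0.726), and Rrm2, at 2965 ± 193 and 3281 ± 189 (-0.15, SE 0.12, adjusted p = 0.49). Other sets of Rrm2 gave -0.29 (adjusted p = 0.151) and -0.40 (adjusted p = 0.16). Pcna gave 5209, 4458 and 4538 with LIF and 4929, 5110 and 4719 without (0.06, SE 0.12, interval -0.19 to 0.31, adjusted p = 0.806). Tyms was at 27.6 ± 13.8 and 36.7 ± 21.96 (-0.33, SE 0.59, adjusted p = 0.774).

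In mitosis 0 genes rose (against 9.48% of all genes) and 2 of 20 fell (10%, against 6.57%), and 18 did not pass. The median change was -0.15 with 14 of 20 below 0, and it was below 0 under all 4 scalings (-0.06 with quantile, -0.25 with upper quartile and -0.49 with median centring). Values of 5 genes lay wholly lower (25%, against 17% of all genes) and of 2, Cdk1 and Cdc20, wholly higher (10%, against 22.8%). Other sets of Cdc20, at mean signals of 1374 and 235, had estimates below 0, -0.07 (adjusted p = 0.862) and -0.29 (adjusted p = 0.59). Among the 3185 brightest genes, 317 fell and 821 lay wholly lower, shares near those of the mitotic genes, and 622 lay wholly higher. Ttk, the checkpoint kinase Mps1, gave 689, 646 and 702 with LIF and 424, 435 and 522 without. The level fell to 0.676 with no overlap (-0.57, SE 0.13, adjusted p = 0.0145), a call that ended without LIF-plus-lithium replicate 3 or lithium-treated LIF-free replicate 1 or 2 (adjusted p 0.0633 to 0.0695), and with its probe sets averaged (-0.55, adjusted p = 0.167). Nek2 gave 391, 577 and 585 with LIF and 227, 283 and 407 without. Here LIF-free replicate 3 lay above LIF replicate 1, so the groups overlapped (-0.78, SE 0.22, adjusted p = 0.0336). The call ended without LIF-plus-lithium replicate 2 or 3 or lithium-treated LIF-free replicate 1 or 2 (adjusted p 0.11 to 0.146), with probe sets averaged (-0.59, adjusted p = 0.0511), without the intensity trend and with only the compared arrays. Its brightest set without a suffix gave -0.39 (adjusted p = 0.341).

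Bub1b, called without lithium, gave 668, 664 and 672 with LIF and lithium and 481, 465 and 524 with lithium alone. The groups were far apart against their own spread, but the fit, which shares 1 spread over all arrays, gave -0.45 (SE 0.15, adjusted p = 0.0632). It was called without LIF replicate 1 (0.0178) or 3 (0.0307), and its other bright probe set fell (-0.64, adjusted p = 0.0162). Kif11, the spindle motor Eg5, changed by -0.47 without overlap (adjusted p = 0.0679), and was called without LIF replicate 3 (0.0499) or lithium-treated LIF-free replicate 3 (0.0235). Its other tested sets, at mean signals of 290 and 256, gave 0.02 (adjusted p = 0.952) and -0.29 (adjusted p = 0.185).

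The genes most used as proliferation markers did not pass. Cdk1 gave 870, 823 and 861 with LIF and 968, 955 and 900 without, wholly higher by a small step (0.14, SE 0.12, adjusted p = 0.467). Mki67 gave 1093, 760 and 568 with LIF and 1216, 1116 and 791 without (0.40, SE 0.27, adjusted p = 0.385). Each was higher in the LIF-free array of the same number, though arrays of these 2 groups were not treated as paired. Aurka was at 630 ± 61.3 and 722 ± 71.4 (-0.20, SE 0.14, adjusted p = 0.419), Top2a at 2707 ± 98.5 and 2915 ± 393 (-0.10, SE 0.12, adjusted p = 0.668), and Birc5 at 1303 ± 102 and 1425 ± 179 (-0.12, SE 0.13, adjusted p = 0.595).

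Over both withdrawals, all 6 LIF-free arrays were below all 6 LIF arrays for Mcm10, Orc1, Rfc4, Gins1, Pola1 and Bub1b, 5 of 22 replication genes (22.7%) and 1 of 20 mitotic genes (5%), against 7.62% of all genes. No member was wholly higher, against 10.7% of all genes. Estimates of the withdrawals, which share no array, had the same sign in 34 of 42 members (81%), close to the 77.1% of all genes. Both were below 0 in 25 members (59.5%, against 36.7% of all genes) and above 0 in 9 (21.4%, against 40.4%). These sign counts are for the deposited scaling only. Under median centring, 10 of 22 replication and 6 of 20 mitotic genes were below 0 without lithium, and 22 and 19 with it. Of the brightest genes, 47.3% were below 0 without lithium and 56.4% with it, as deposited. Across the 42 genes the Pearson correlation of the estimates was 0.790, beside 0.779 over all genes, a description across genes that share arrays. In such bulk samples, fewer cells of a type and less RNA per cell cannot be told apart.

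**Figure D3:**
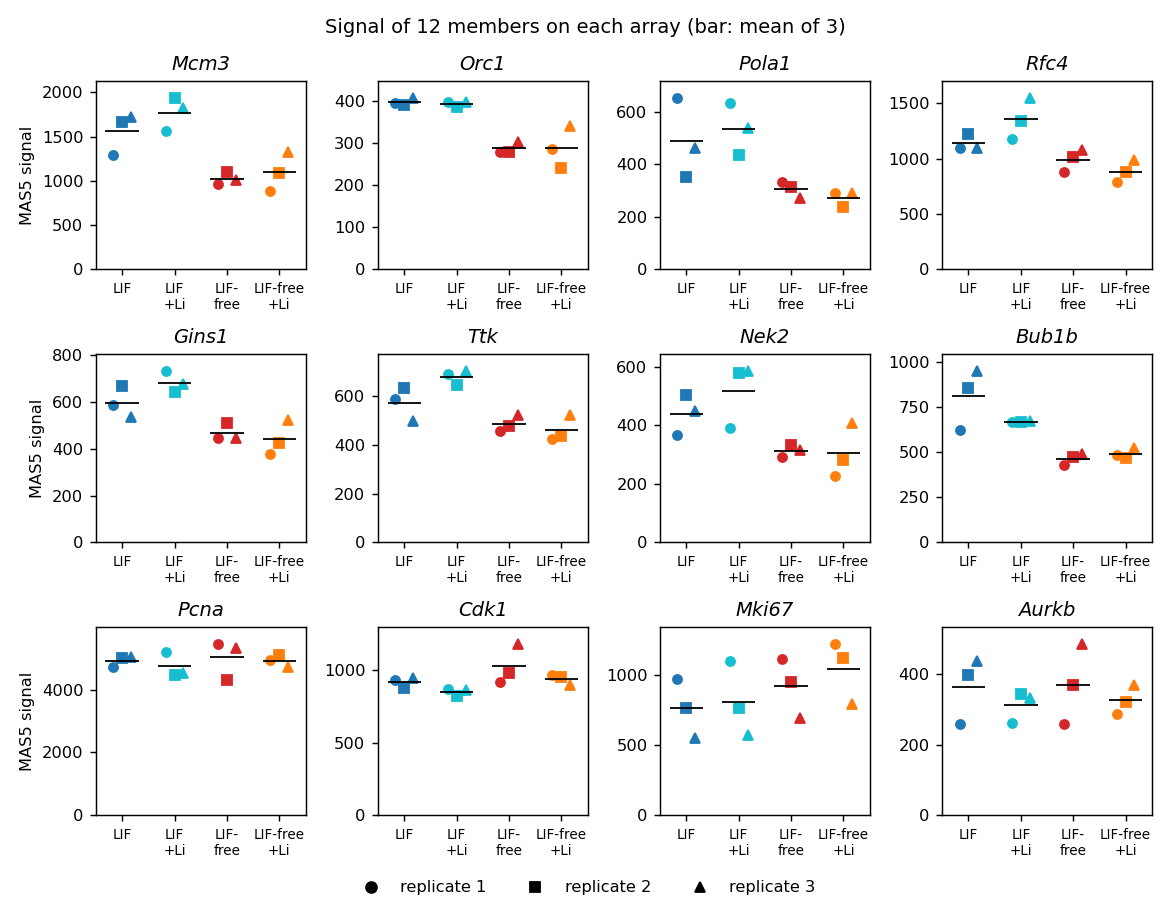
MAS5 signal (linear axis from 0) of 12 members on each array, with bars at the mean of 3 and marker shapes for the replicate number. The 6 LIF-free arrays of Orc1, Pola1, Rfc4, Gins1 and Bub1b lie below their 6 LIF arrays, those of Pcna overlap, and Mki67 and Aurkb separate by replicate number.

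Lithium was compared at each level of LIF. With LIF present, LIF-plus-lithium against LIF cultures, 0 members and 0 of all probe sets were called (0% of genes), and without LIF again 0 (0% of genes). At an unadjusted p under 0.05 limma gave 1 member, Mcm2, with LIF and 0 without, beside 301 and 151 of the 12737 genes. Mcm2 gave 930, 991 and 698 in LIF and 939, 1182 and 1284 in LIF-plus-lithium cultures, which overlap (0.38, SE 0.17, adjusted p = 0.999). Median changes with LIF were 0.14 for replication and 0.02 for mitotic genes, beside -0.02 over all genes and 0.07 over the brightest genes. Without LIF they were -0.05 and -0.06, beside 0.01 and -0.03. The replication medians kept their sign under the 4 scalings, from 0.10 to 0.51 with LIF and from -0.01 to -0.22 without. Set against the all-gene median, they were 0.16 with LIF and -0.07 without as deposited, and 0.06 and 0.0001 with quantile scaling. The median without LIF was 0.01 when LIF-free replicate 3 was left out. Averaging each gene's probe sets gave a median of 0.0066 with LIF.

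The intervals give the precision behind these values, for the deposited scaling only, since median centring moves the all-gene median from -0.02 to 0.35 with LIF and from 0.01 to -0.16 without. With LIF, the 95% interval of the log2 change lay within 1 either way, a 2-fold change, for 21 of 22 replication genes, Tyms being the exception (-1.13 to 1.40), and for all 20 mitotic genes. Without LIF it did so for 21 and 20, again other than Tyms. Pcna changed by -0.06 (interval -0.31 to 0.19) with LIF and by -0.03 (-0.28 to 0.23) without, and Mki67 by 0.07 (-0.51 to 0.65) and 0.19 (-0.39 to 0.77). Bub1b changed by -0.25 (-0.57 to 0.06) with LIF and 0.08 (-0.24 to 0.40) without.

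Values wholly higher with lithium were found in Rrm1 and, of mitotic genes, Ttk and Kif11 with LIF (2.02% of all genes), and in Cdc25c and Top2a without LIF (3.42%). Those wholly lower were 1 with LIF, Cdk1 (4.54% of all genes), and 0 without (2.8%). Ttk was at 679 ± 29.3 with lithium and 573 ± 68.6 without (0.25, SE 0.13, adjusted p = 0.999), and Top2a at 2707 ± 98.5 and 2340 ± 187 (0.21, SE 0.12, adjusted p = 1.00).

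Whether withdrawal differed between the lithium backgrounds was tested as the interaction. No member was called, and 0% of genes were, with 0 members and 276 genes at an unadjusted p under 0.05. The median interaction was -0.18 for replication genes and -0.05 for mitotic genes, and under median centring these were -0.71 and -0.59. Under quantile scaling the mitotic value was 0.03. Mcm2 had the lowest estimate (-0.50, interval -1.03 to 0.02, adjusted p = 0.999). Another of its sets, at a mean signal of 895, changed on withdrawal by -0.33 without and -0.29 with lithium. Rfc4 was at -0.41 (-0.83 to 0.01), Pola1 at -0.33 (-0.97 to 0.31) and Bub1b at 0.33 (-0.11 to 0.78). The higher count of calls with lithium (8 against 3 members) is therefore not shown to be a difference between the backgrounds.

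**Figure D4:**
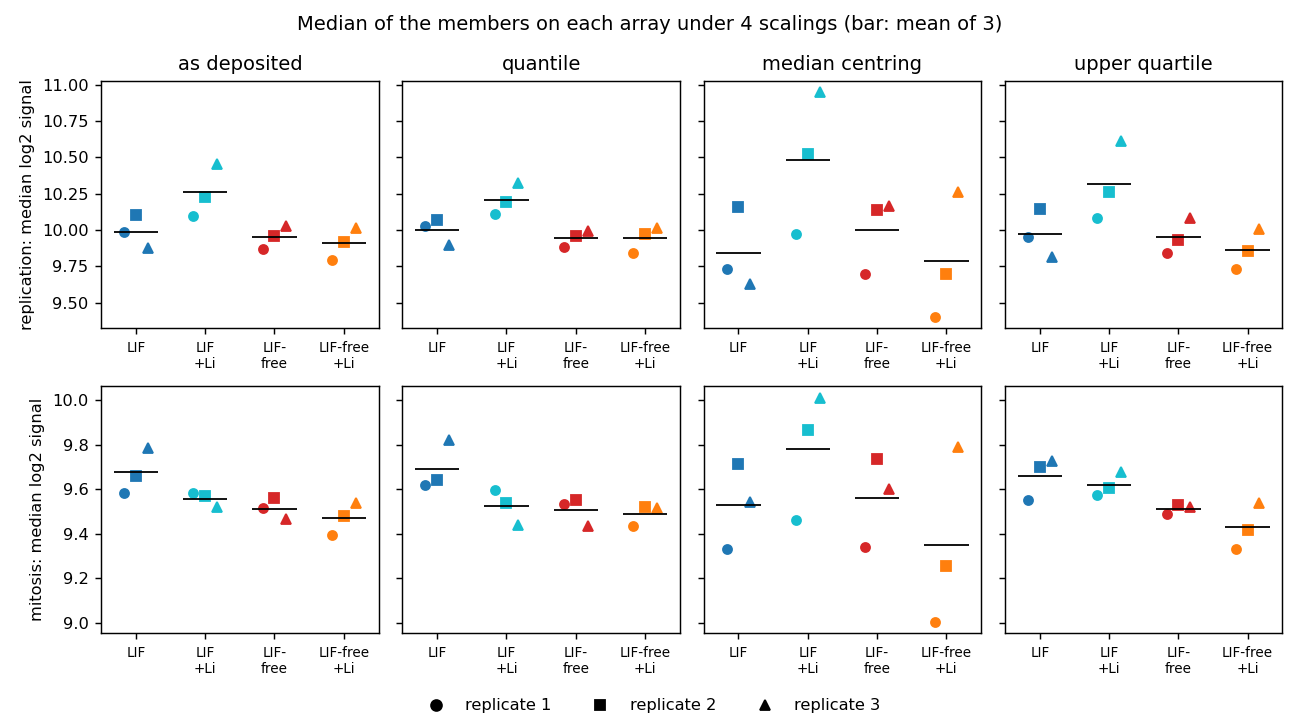
Median log2 signal over the 22 replication genes (top) and 20 mitotic genes (bottom) on each array under 4 scalings, with bars at the mean of 3 arrays. As deposited, the replication medians are 9.87 to 10.10 in LIF, 10.10 to 10.46 in LIF-plus-lithium, 9.87 to 10.03 in LIF-free and 9.79 to 10.01 in lithium-treated LIF-free cultures. Median centring widens the spread within groups, to 9.97 to 10.95 for replication genes with LIF and lithium, and puts the LIF-free mean above the LIF mean.

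Further genes of the same machinery were listed apart from the members. Of 44 other replication genes, 0 rose (against 7.47% of all genes) and 1 fell (2.27%, against 5.09%) without lithium. It was Recql4, a helicase, from a low signal of 67.4 ± 14.4 to 40.04 ± 3.02 (-0.73, SE 0.21, adjusted p = 0.0432). With the replicate number as a block 9 fell, while the count over all genes went from 648 to 1367. With lithium 1 rose (2.27%, against 9.48% of all genes) and 5 fell (11.4%, against 6.57%). Of the 3185 brightest genes, 317 fell. Rpa2, a subunit of the single-strand binding protein, went from 612 ± 97.3 to 380 ± 65.6 (-0.69, SE 0.16, adjusted p = 0.0129), and Dna2, a nuclease of lagging strands, from 393 ± 46.4 to 238 ± 57.4 (-0.75, SE 0.19, adjusted p = 0.0201). Pole2, of DNA polymerase epsilon, fell by 0.50 on the log2 scale (adjusted p = 0.0375), and Pole3, its histone-fold subunit, was the one that rose (0.59, adjusted p = 0.0276). Their medians were -0.21 and -0.27, with 38 and 39 of 44 below 0 (86.4% and 88.6%, against 51.4% and 44.9% of all genes). These medians stayed below 0 under the 4 scalings, though at -0.02 without lithium under median centring. The Pole3 call ended under quantile, median and upper quartile scaling and with probe sets averaged (adjusted p up to 0.617). Median centring also ended the calls of Recql4, Rpa2, Dna2 and Pole2, and quantile scaling that of Recql4. Dna2's ended with probe sets averaged too. Leaving out LIF-plus-lithium replicate 3 or lithium-treated LIF-free replicate 1 or 2 ended each of the 4 calls named with lithium, as did LIF-plus-lithium replicate 1 for Dna2 and Pole2, replicate 2 for Rpa2, Pole2 and Pole3, and LIF-free replicates 1 and 2 for Pole2 (adjusted p 0.051 to 0.154), and any array other than LIF replicate 1 ended that of Recql4.

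Of 70 other mitotic genes, 1 rose (1.43%) and 4 fell (5.71%, against 5.09% of all genes) without lithium, and 1 rose and 5 fell (7.14%, against 6.57%) with lithium. The replicate block gave 2 that rose and 9 that fell without lithium, against 1701 and 1367 of all 12737 genes. Their medians were -0.14 and -0.18, and the first flips to 0.06 under median centring. Zwint, a kinetochore scaffold protein, rose from 832 ± 220 to 1759 ± 85.4 (2.16-fold, adjusted p = 0.00189) and from 888 ± 36.5 to 1619 ± 45.9 with lithium (1.82-fold, adjusted p = 0.00388). Cep55, which acts at the last cut between daughter cells, fell from 978 ± 95.5 to 503 ± 6.93 (0.516 of the LIF level, adjusted p = 0.00186) and from 1008 ± 43.9 to 463 ± 78.4 with lithium (0.456, adjusted p = 6.19e-04). Both calls held in each background whichever array was left out, while median centring ended the fall of Cep55 without lithium and the rise of Zwint with lithium. Without lithium, Ncapd2, a condensin subunit, fell from 915 ± 270 to 493 ± 65.3 (adjusted p = 0.0298). With lithium, Cenpp, a centromere protein, fell from 396 ± 61.4 to 211 ± 33.6 (adjusted p = 0.00351). The motor gene Kif14 fell in both (adjusted p 0.00969 and 0.0133) from signals of 21.2 ± 4.02 and 21.98 ± 7.53, calls that ended without LIF replicate 2 (0.0509), or with lithium without LIF-plus-lithium replicate 3 or lithium-treated LIF-free replicate 1 (0.0539 to 0.0792). Ncapd2's call ended without LIF replicate 2 or 3 or any LIF-free array (adjusted p 0.0555 to 0.112), and also under median centring. That of Cenpp ended with probe sets averaged (adjusted p = 0.336).

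Among 28 regulators of these programmes, 3 rose (10.7%, against 7.47% of all genes) and 2 fell (7.14%, against 5.09%) without lithium. With it 3 rose (10.7%, against 9.48%) and 3 fell (10.7%, against 6.57%). The replicate block gave 5 and 5 without lithium, against 1701 and 1367 of all 12737 genes. E2f6, a repressor of the E2F family, rose from 196 ± 34.6 to 324 ± 20.4 (adjusted p = 0.00749) and E2f3, an activator, from 126 ± 42.3 to 229 ± 33.2 (adjusted p = 0.0348). E2f2, another activator, fell from 41.9 ± 7.55 to 12.9 ± 1.19 (adjusted p = 0.00394), and Rbl2, the pocket protein p130, from 33.0 ± 5.11 to 15.7 ± 3.03 (adjusted p = 0.0353), both at low signals. With lithium, E2f3 rose from 124 ± 32.2 to 218 ± 8.30 (adjusted p = 0.0392) and E2f2 fell from 35.6 ± 6.65 to 15.9 ± 2.97 (adjusted p = 0.02). There Chek1, the replication checkpoint kinase, fell from 737 ± 100 to 440 ± 37.9 (adjusted p = 0.0166), and Tfdp2, a partner of E2F factors, from 191 ± 4.10 to 131 ± 11.8 (adjusted p = 0.043). The E2f2 and E2f6 calls without lithium held whichever array was left out. Without lithium, that of E2f3 ended without LIF replicates 2 or 3, LIF-plus-lithium replicate 2, any LIF-free array or lithium-treated LIF-free replicate 2 (0.0504 to 0.119), and that of Rbl2 without LIF replicates 2 or 3, LIF-plus-lithium replicate 2 or LIF-free replicates 2 or 3 (0.0527 to 0.126). With lithium, that of Chek1 ended without LIF-plus-lithium replicate 3 or lithium-treated LIF-free replicates 1 or 2 (0.0635 to 0.0837), and that of E2f2 without LIF-plus-lithium replicates 2 or 3 or lithium-treated LIF-free replicate 1 (0.0558 to 0.105). E2f3's ended there without 8 of the 12 arrays, all but LIF replicates 1 and 3, LIF-plus-lithium replicate 1 and LIF-free replicate 1 (0.0513 to 0.173), and Tfdp2's without 10, all but LIF replicates 1 and 3 (0.0521 to 0.156). The E2f3 call with lithium also ended under quantile, median and upper quartile scaling. Quantile scaling and median centring ended the Rbl2 call without lithium, and median centring the Chek1 and Tfdp2 calls with lithium. Averaging probe sets ended the calls of E2f2 (adjusted p = 0.0591) and E2f3 without lithium, and of Chek1 and Tfdp2 with it. With only the compared arrays, the calls of E2f6 (adjusted p = 0.0531), E2f3 and Rbl2 without lithium ended.

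Summed trophoblast and epithelial markers, and feeder and fibroblast markers, were higher without LIF and thus moved with every withdrawal change above. Sums of endoderm, neural, and blood and endothelial markers overlapped between cultures with and without LIF. Over all genes, 7.47% rose and 5.09% fell without lithium, and 9.48% rose and 6.57% fell with it. Of 9 tested trophoblast and epithelial markers, 6 rose without lithium (9 with the replicate block) and 8 with it, and their summed signal was 3888 to 6356 in LIF, 3567 to 5751 in LIF-plus-lithium, 12754 to 14836 in LIF-free and 12736 to 14864 in lithium-treated LIF-free cultures. Of 9 tested feeder and fibroblast markers, 2 rose in each, with sums of 246 to 385, 225 to 262, 426 to 605 and 456 to 711 in the same order. Of 10 endoderm markers 2 rose and 1 fell, and with lithium 1 rose and 2 fell (sums 673 to 1344, 617 to 1250, 908 to 1342 and 832 to 1000). Of 8 neural markers 1 rose and 2 fell in each (503 to 587, 485 to 642, 412 to 550 and 380 to 505), and of 7 blood and endothelial markers 0 rose and 1 fell without lithium and 1 rose and 1 fell with it (158 to 270, 165 to 246, 111 to 211 and 141 to 165). The deposited table holds no value of 0, and the dimmest of the neural and blood markers, such as Pax6 at 8.03 ± 1.3 and Cdh5 at 5.23 ± 3.14 in LIF cultures, were near the filter. The ratio of 3′ to 5′ Gapdh control signals, a sign of RNA quality, was 0.810 to 0.820 in LIF, 0.798 to 0.860 in LIF-plus-lithium, 0.739 to 0.800 in LIF-free and 0.748 to 0.802 in lithium-treated LIF-free cultures, and the actin ratio 1.49 to 1.98, 1.56 to 1.98, 1.45 to 1.70 and 1.497 to 1.67. The part of these in the members' changes was not tested.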

How the data were processed

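RNA of 12 cultures was measured on Affymetrix arrays. The deposited intensities are linear MAS5 signals, per the submitters' processing notes, with the MAS5 version not given in the sources used here; per the deposited values each array was scaled to a trimmed mean of 100.001 (2% trimmed at each end). The table holds 45101 probe sets, 64 of them controls. Gene names came from the platform annotation: 34945 of the other probe sets had 1 symbol, 932 several and 9160 none.

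Signals under 1 were set to 1 (0.146% of kept values) and log2 transformed. Probe sets above the 40th percentile of mean log2 signal (27022, a signal of 7.52) were tested with limma 3.58.1 in R 4.3.3 (lmFit and eBayes with an intensity trend), with a mean per group, all 12 arrays sharing 1 spread (8 residual degrees of freedom), two-sided, and Benjamini-Hochberg adjustment over all of them at 0.05. Intervals are 95%. Shares over all genes use the brightest kept probe set of 12737 genes. With 3 arrays a group, precision is limited by their number, and a two-sided permutation test of 3 against 3 cannot go below 0.1. The labels call the replicates biological and say no more of their origin, so p-values measure only the spread between these samples. The members and the gene lists were chosen with earlier results of these data known.

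Genes of other lists are named by a rule, up to 4 called genes per list and withdrawal with the smallest p. Deviations of same-numbered arrays from their group means correlated at 0.137 to 0.438 for LIF-free and LIF arrays, 0.139 to 0.499 for LIF-plus-lithium and LIF, and 0.111 to 0.462 for the LIF-free pair, so these were treated as paired. Between LIF-plus-lithium and lithium-treated LIF-free arrays 1 of the 3 was 0.0972, so they were not. Each result was also computed under 3 other scalings (quantile, centring on the array median, upper quartile), on log2(signal + 16), unfiltered and filtered above the 60th percentile, with replicate number as a block, without the intensity trend, on the compared arrays alone, on each gene's probe sets averaged, on its brightest set lacking an _x_at, _s_at or _a_at suffix, and with each array left out. The scripts were tested on simulated data.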

Additional observations from a re-analysis of the deposited data

How the results depend on the processing

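Median centring moves the median of all genes to 0.18 without and -0.28 with lithium. On withdrawal without lithium it called 1560 probe sets (1297 higher), against 2515 as deposited (1458 higher), and 0 replication and 0 mitotic genes, with medians of 0.075 and 0.055. With lithium it called 1490 probe sets (519 higher), against 3368 (2035 higher), and 1 replication and 0 mitotic genes, with medians of -0.56 and -0.49. Lithium medians became 0.51 and 0.39 with LIF and -0.22 and -0.22 without, and the interaction -0.71 and -0.59. The cause was not tested. Quantile scaling gave mitotic medians of -0.059 with lithium and 0.028 for the interaction. Upper quartile scaling gave 0 replication calls without lithium and mitotic medians of -0.25 with lithium, 0.10 for lithium with LIF and -0.17 for the interaction. Without lithium, 0 replication genes were also called with no filter, with no intensity trend (1674 probe sets) and with only the compared arrays (1168 probe sets, fewer samples). With no trend 1 mitotic gene was called with lithium. Averaging each gene's probe sets gave 0 replication and 0 mitotic calls without lithium, 3 and 0 with lithium, a replication median of 0.0066 for lithium with LIF, and turned Mcm10 with lithium to 0.23. Sets without suffixes gave 1 replication call and a replication median of -0.27 without lithium. The replicate block gave 5260 probe sets and 2 mitotic genes without lithium, and, though that pair was not treated as paired, 5938 and 5 mitotic genes with lithium, of which 1, Mki67, rose (adjusted p = 0.0198). It changed the calls of Pola1 and Nek2 without lithium and, with lithium, of Mcm5, Bub1b, Kif11 and Mki67, and of no other member.

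Leaving out 1 array moved withdrawal calls without lithium over 1039 to 3950 probe sets, replication calls over 0 to 4 (4 without LIF replicate 1, of which Orc6 and Rfc3 rose, 0 without LIF replicate 3, LIF-plus-lithium replicate 2 or any LIF-free array) and mitotic calls not at all (1 to 1), with medians of -0.19 to -0.05 and -0.22 to -0.055. With lithium the ranges were 1360 to 4311 probe sets, 1 to 6 replication calls (1 without lithium-treated LIF-free replicate 1 or 2, 2 without LIF-plus-lithium replicate 3, 3 without its replicate 2) and 0 to 4 mitotic calls (4 without LIF replicate 3, 0 without LIF-plus-lithium replicate 3 or lithium-treated LIF-free replicate 1 or 2), with medians of -0.27 to -0.18 and -0.19 to -0.13. For lithium they were 0 to 2 probe sets and medians of 0.07 to 0.16 and -0.03 to 0.09 with LIF, 0 to 0 and -0.11 to 0.01 and -0.11 to 0.016 without LIF, and for the interaction medians of -0.24 to -0.11 and -0.12 to 0.035.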

Other observations

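Several mitotic genes followed the replicate number in the labels, whichever medium was used. Mki67 was highest in the arrays numbered 1 and lowest in those numbered 3 in all 4 groups, with means over the 4 groups of 1097, 897 and 649 for numbers 1, 2 and 3. Cenpe, the kinetochore motor, had the same order at 468, 362 and 258. Aurkb and Plk1, mitotic kinases, were lowest in the arrays numbered 1 in all groups, at 266, 358 and 407 and at 309, 414 and 383. In 9 of 20 mitotic genes (45%) the same number was lowest in all 4 groups, against 3 of 22 replication genes (13.6%) and 16% of all genes. The replicate number held a median of 27.4% of a mitotic gene's variance, 10.5% of a replication gene's and 17.3% of any gene's, and the group 37.7%, 48.4% and 41.5%. By gene, the number held 72.6% for Mki67, 71.2% for Cenpe, 81.8% for Plk1, 75.6% for Aurkb and 76% for Tyms, while the group held 79% for Mcm3, 83% for Orc1 and 84.3% for Bub1b. What the number stands for is not given in the labels, and these are descriptions with no test.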
